A study of Homo sapiens with 10 samples.

Results

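The IER genes are 4 genes named for their immediate early response to growth factors and stress: IER2, IER3, IER5 and IER5L. They were taken by symbol from the 20327 Ensembl genes listed for each library, and each symbol matched 1 gene. The rule is the gene name alone, but the family was picked for description with earlier results of these data known. RNA had been measured by sequencing of polyadenylated RNA in hTERT RPE-1 cells, a wild-type human line from retinal pigment epithelium that was immortalised with telomerase. All cells had first been held for 48 h in medium with 0.1% serum. The 30 min experiment set 3 libraries of cells given merbarone at 200 µM for 30 min against 3 libraries given the solvent DMSO for 30 min, and the 2 h experiment set 2 libraries of cells given merbarone at 200 µM for 2 h against 2 libraries of untreated cells. Merbarone blocks the catalytic cycle of topoisomerase II, an enzyme that relieves DNA supercoiling, and the study's title concerns supercoiling and the pausing of RNA polymerase II near promoters. The control of the 2 h experiment had received no solvent, and each comparison stays within its own experiment. The labels do not say whether replicates came from separate cultures, so the p-values measure the spread between these libraries, which may be technical.

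Immediate-early genes are transcribed within minutes of a stimulus without new protein being made, and their RNAs are mostly short-lived. In cells starved of serum they are held low and are switched on through the ERK and p38 MAP kinase pathways, serum response factor and related factors, and many of them carry a polymerase paused just downstream of the start site. IER2, IER5 and IER5L encode nuclear proteins that share a conserved amino-terminal region. IER2 and IER5 bind the phosphatase PP2A, and IER5 brings it to the heat shock factor HSF1. IER3, also called IEX-1, shares the name but not the sequence: it is a small membrane-associated protein that is phosphorylated by ERK and affects cell survival.

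IER2 (ENSG00000160888) lies on GRCh37 chromosome 19 from 13261225 to 13265725 on the plus strand, and its coding sequence lies within the last exon. IER3 (ENSG00000137331) lies on chromosome 6 from 30710976 to 30712325 on the minus strand. IER5 (ENSG00000162783) lies on chromosome 1 from 181057836 to 181062036 on the plus strand, and IER5L (ENSG00000188483) on chromosome 9 from 131937831 to 131940540 on the minus strand. Both are annotated as 1 exon with no intron. IER5 overlapped no other annotated gene. On the opposite strand, IER3 overlapped IER3-AS1 by 440 bp and HCG20 by 759 bp, IER5L overlapped IER5L-AS1 by 2455 bp, and IER2 overlapped an unnamed long noncoding RNA by 1123 bp and another by 662 bp. IER5L also lay whole, with its 2710 bp, opposite an unnamed protein-coding gene model. Whether the authors counted by strand is not given in the sources used here, so antisense reads could be part of the IER2, IER3 and IER5L values. None of these overlapping genes was among the genes of the tables.

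The promoters of IER2, IER5 and IER5L are shown because each of these genes was higher in every merbarone library than in every control at 2 h, while their start-site sequences differ. They come from RefSeq on GRCh38.p14, which is another build than that of the coordinates above, and 3 of the 4 genes matched (all but IER3). Each runs from 250 bases before the start site through the first 50 bases of the transcript, 5′ to 3′ on the strand of the gene. Capitals mark the matches to the motifs described next.
IER2, chr19:13150161-13150460, plus strand: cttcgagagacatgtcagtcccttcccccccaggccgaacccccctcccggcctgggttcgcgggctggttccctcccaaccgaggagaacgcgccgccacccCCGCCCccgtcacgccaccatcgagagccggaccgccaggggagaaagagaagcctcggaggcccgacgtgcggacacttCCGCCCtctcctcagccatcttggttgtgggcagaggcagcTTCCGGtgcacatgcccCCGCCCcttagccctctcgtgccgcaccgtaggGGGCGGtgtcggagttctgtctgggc
IER5, chr1:181088450-181088749, plus strand: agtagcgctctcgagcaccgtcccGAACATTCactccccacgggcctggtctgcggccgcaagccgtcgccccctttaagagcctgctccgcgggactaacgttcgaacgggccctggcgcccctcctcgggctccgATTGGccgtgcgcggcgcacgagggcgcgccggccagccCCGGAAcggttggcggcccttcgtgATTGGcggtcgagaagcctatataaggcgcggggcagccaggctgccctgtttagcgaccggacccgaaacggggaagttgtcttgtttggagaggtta
IER5L, chr9:129178212-129178511, minus strand: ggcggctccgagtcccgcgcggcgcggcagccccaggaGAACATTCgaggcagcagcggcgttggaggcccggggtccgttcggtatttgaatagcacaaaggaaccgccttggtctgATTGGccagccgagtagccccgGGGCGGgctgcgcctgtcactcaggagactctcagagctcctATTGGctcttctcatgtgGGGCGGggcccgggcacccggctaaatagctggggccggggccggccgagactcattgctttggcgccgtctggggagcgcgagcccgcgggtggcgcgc

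Motifs were searched on both strands, and no match overlapped another. IER5 and IER5L each held the letters GAACATTC once, a match to the paired heat shock element GAANNTTC, at positions -226 and -212 from the start site. This motif was present in 6.77% of all 35116 RefSeq promoters of the same length and was not found in the IER2 window. IER5 and IER5L each also held 2 inverted CCAAT boxes, which 34.6% of promoters hold and IER2 did not. IER2 held 4 GC boxes (GGGCGG), IER5L held 2 and IER5 none, against 45.0% of promoters with at least 1. The ETS core CCGGAA (17.2% of promoters) stood in IER2 at position -26 and in IER5 at position -74. The TATA box letters TATAAA (11.5%), the AP-1 site TGANTCA (7.71%), the amino acid response element TGATGNAA (3.62%), the cAMP response element TGACGTCA (1.85%) and the CArG box of serum response factor (1.29%) had no match in the 3 windows. Variants of these letters were not searched. The IER5 window holds TATATAAG, which the search for TATAAA does not match, so a TATA-like element is not excluded there. The windows were 69.7%, 67.3% and 69.3% G and C for IER2, IER5 and IER5L, against a median of 58.7% over all promoters.

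The authors deposited RPKM, the reads of a gene divided by its length in kilobases and scaled to the depth of the library. Library totals recovered from the steps in these values were 26644379 to 38240706 reads in the 30 min experiment and 11962092 to 13696974 in the 2 h experiment. No replicate libraries were identical, and each replicate pair differed by more than sampling noise in a chi-square test of its reads over genes. The pigment epithelium label was checked on 8 marker genes. RPE65, RLBP1, TTR and TYR were at or below 0.0656 RPKM in every library, so these markers were absent or close to it. MITF was low, at 0.218 to 0.415 RPKM, while BEST1 (at least 2.10 RPKM), PMEL (3.68 to 5.07) and OTX2 (2.35 to 4.61) were present. The summed level of the 8 markers was 8.80 to 11.4 RPKM in the 30 min experiment and 25.0 to 29.0 RPKM in the 2 h experiment. Its ranges overlapped between treated and control libraries within each. The ranges of the other markers are too narrow to make the difference between experiments, so it lies mainly in BEST1. Of the mesenchymal markers, VIM stood at 560 to 1105 RPKM and COL1A1 at 1.48 to 5.92 RPKM, and of the epithelial keratins, KRT18 stood at 14.1 to 69.4 RPKM and KRT8 at 1.8 to 6.64 RPKM.

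All 4 IER genes were expressed in the starved cells, with IER3 highest and IER5L lowest. In the untreated libraries IER3 measured 36.8 and 46.9 RPKM, IER5 30.0 and 31.9 RPKM, IER2 13.8 and 16.4 RPKM, and IER5L 5.18 and 7.38 RPKM. These levels do not overlap between genes. The DMSO libraries gave the same order in each library, with IER3 at 33.7 ± 4.34, IER5 at 24.4 ± 2.42, IER2 at 12.6 ± 3.09 and IER5L at 5.16 ± 2.29 RPKM (SD, n = 3). IER3 exceeded 98.5% of the 15997 genes above 0 in untreated cells, and IER5L exceeded 88.4% of them, at a median of 0.613 RPKM over those genes. These ranks depend on gene structure. For 75.2% of matched genes the length behind RPKM was within 1% of the genomic span, introns included, which lowers the RPKM of genes with long introns. IER3 and IER5L have 0 bp of intron by that count, so their ranks may be too high as ranks of transcript level. The middle of the order depends on the length used. The length behind the deposited values was 4494 bp for IER2, close to its span of 4501 bp with the intron, and 2340 bp for IER5, against 4201 bp in the annotation used here. Per kilobase of annotated exon, the untreated means were 42.0 for IER3, 22.0 for IER2, 17.2 for IER5 and 6.27 for IER5L. These are on the same depth scale as RPKM and put IER2 above IER5. The reads were those behind the deposited values, not a new count over these exons. Reads in the part of IER5 beyond 2340 bp may not have been counted, so its 17.2 may be too low. Which of IER2 and IER5 was higher cannot be settled from these values.

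**Figure D1:**
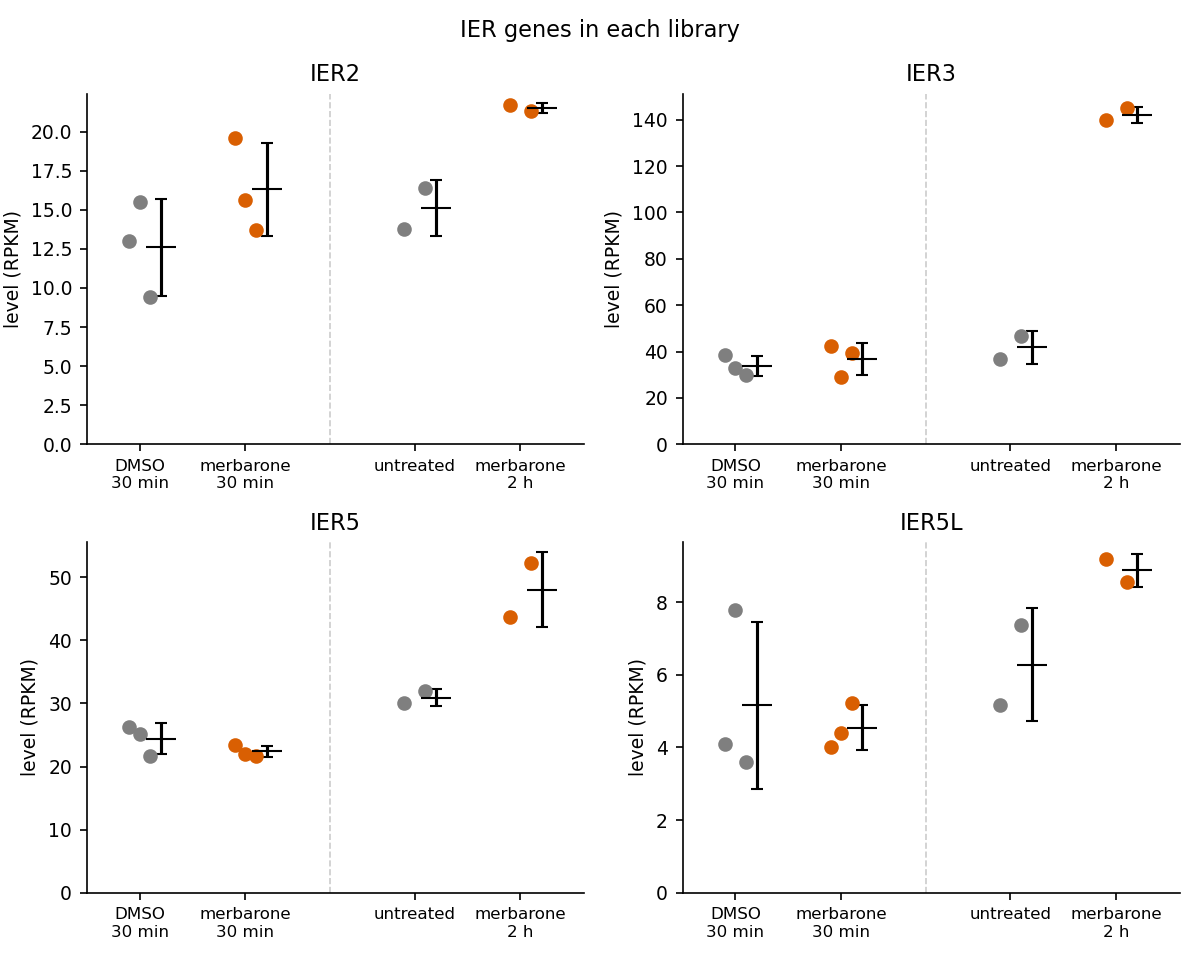
Level in RPKM (vertical axes, each from 0) of the 4 IER genes in each of the 10 libraries, as points, with the mean and SD of each group beside them and a dashed line between the experiments. At 2 h both merbarone libraries lie above both untreated libraries for each gene, with IER3 at 140 and 145 RPKM, while the groups of the 30 min experiment overlap.

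At 30 min, IER2 was the member with the largest difference. IER2 measured 13.0, 15.5 and 9.39 RPKM in DMSO and 19.6, 15.6 and 13.7 RPKM after merbarone, in replicates 1, 2 and 3. Its groups overlapped, although 2 of 3 treated libraries lay above every control library. Same-numbered libraries rose by 0.55, 0.01 and 0.50 on the log2(RPKM + 1) scale, so the difference came from replicates 1 and 3. The log2 fold change was 0.35 ± 0.20 (SE), with a 95% confidence interval from -0.12 to 0.83. It was the 14th highest of 6500 genes tested in limma but had an unadjusted p of 0.122 and an adjusted p of 1.00. In limma's voom on recovered reads, the log2 fold change of IER2 was 0.39, the 151st highest of 14013 genes tested.

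IER3 and both IER5 genes differed less. IER3 measured 38.5, 32.8 and 29.9 RPKM in DMSO and 42.2, 29.2 and 39.3 RPKM after merbarone. As for IER2, 2 of 3 treated libraries lay above every control library, while the lowest IER3 value of the experiment was also a treated library. The IER3 log2 fold change was 0.12 ± 0.16 (SE; 95% interval -0.26 to 0.50). IER5 measured 26.3, 25.2 and 21.6 RPKM in DMSO and 23.4, 22.0 and 21.7 RPKM after merbarone, a log2 fold change of -0.11 ± 0.09 (SE; 95% interval -0.32 to 0.09). No treated IER5 library exceeded every control. IER5L measured 4.11, 7.78 and 3.59 RPKM in DMSO and 4.01, 4.40 and 5.22 RPKM after merbarone. The DMSO replicate 2 stood apart from the other DMSO libraries: it rested on 646 reads, and the highest control was 2.17 times the lowest. The coefficient of variation of IER5L in DMSO was 44.3%, where counting error alone gives 4.78%. The IER5L log2 fold change was -0.10 ± 0.25 (SE; 95% interval -0.69 to 0.50) and became 0.19 without that library.

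None of the 4 members was called at 30 min by limma (adjusted p of 1.00 each) or by voom, and in the limma fit without pairing none had an unadjusted p under 0.05. The background was low: 0.0154% of the genes tested, which is 1 gene, FOS, were called higher, and 0.877% had every treated library above every control. None of the members did. The replicate numbers pair the libraries of this experiment (same-numbered deviations correlated at 0.925, 0.646 and 0.605), and with the number as a block the calls went from 1 gene to 8, still with no member among them. The block narrowed the IER2 interval to 0.09 to 0.62, above 0, with an unadjusted p of 0.0181 in limma and an adjusted p of 1.00. In voom with the block, IER2 had an unadjusted p of 0.00385 and IER5, with a log2 fold change of -0.12, one of 0.0474, and both had an adjusted p of 1.00. The blocked intervals of the other members included 0 in limma, from -0.13 to 0.36 for IER3, from -0.24 to 0.01 for IER5 and from -0.58 to 0.39 for IER5L.

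**Figure D2:**
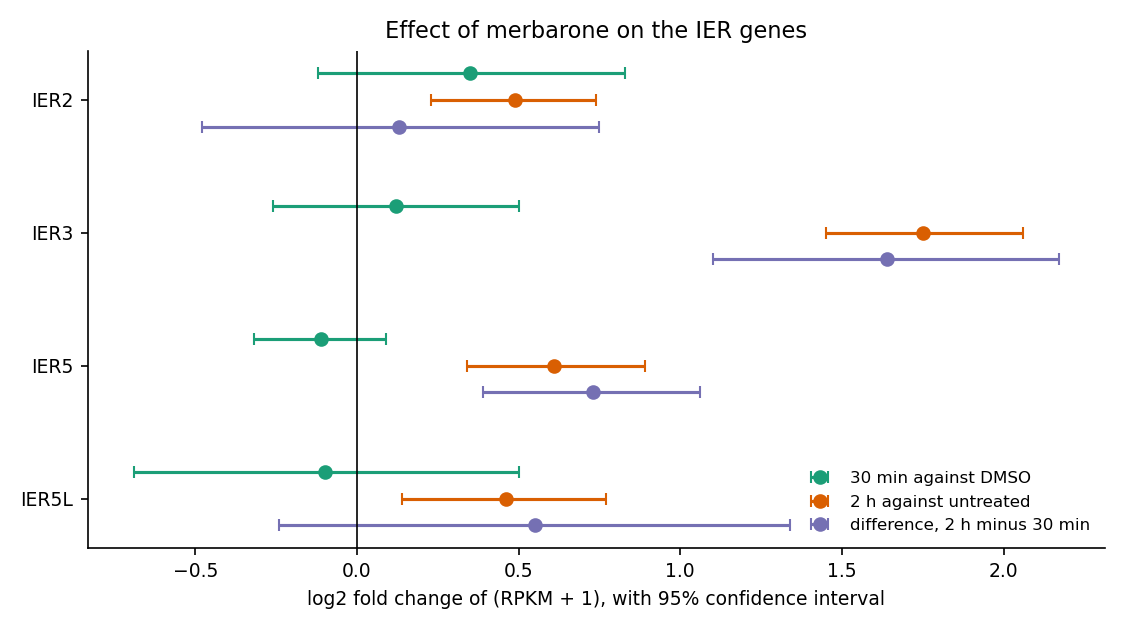
Log2 fold change of (RPKM + 1) with its 95% confidence interval from limma without pairing (horizontal axis) for each IER gene, after 30 min of merbarone, after 2 h, and for the difference between both effects. The intervals at 2 h lie above 0 for the 4 genes, that of IER3 from 1.45 to 2.06, and the intervals at 30 min include 0.

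At 2 h the IER genes were higher after merbarone, IER3 by far the most. IER3 measured 36.8 and 46.9 RPKM in the untreated libraries and 140 and 145 RPKM after merbarone. The treated libraries differed from each other by a factor of 1.04 and the untreated by 1.28, against 3.40 between the group means (41.9 ± 7.16 and 142 ± 3.52 RPKM; SD, n = 2). In reads, IER3 went from 665 and 761 per library to 2598 and 2562. On the log2 scale the rise was 1.75 ± 0.13 (SE), the 19th largest of 6620 genes tested, and limma gave it an adjusted p of 7.99e-05. In voom on recovered reads the rise of IER3 was 1.78, the 77th largest of 13441 genes tested. In total RNA of a culture, a rise in each cell and a rise in some of the cells cannot be told apart.

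IER5 was next. It measured 30.0 and 31.9 RPKM untreated and 43.7 and 52.2 RPKM after merbarone, without overlap, and the group means rose 1.55 times. This was a log2 rise of 0.61 ± 0.12 (SE), which passed in limma (adjusted p of 0.0140). IER2 measured 13.8 and 16.4 RPKM untreated and 21.7 and 21.3 RPKM after merbarone, also without overlap. Its means rose 1.42 times, or 0.49 ± 0.11 (SE) as a log2 fold change, which also passed (adjusted p of 0.0247).

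IER5L had the lowest level and the fewest reads, 187 to 341 per library in this experiment. It measured 5.18 and 7.38 RPKM untreated and 9.20 and 8.56 RPKM after merbarone. Every treated library lay above every control, but the untreated libraries differed from each other by a factor of 1.42, as large as the ratio of 1.41 between the group means. The log2 fold change of 0.46 ± 0.14 (SE; 95% interval 0.14 to 0.77) did not pass, with an adjusted p of 0.0609 in limma. It passed with median scaling (adjusted p of 0.0404), with quantile normalization (0.0394) and with limma's voom on recovered reads (0.0367). The value rested on the untreated libraries: without untreated replicate 2 it was 0.67 (adjusted p of 5.96e-05), and without untreated replicate 1 it was 0.24 (0.0561).

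Thus 3 of the 4 members were called higher at 2 h, where 5.98% of all genes tested were, and 4 of 4 had every treated library above every control, where 22.5% of genes did. In all, 396 genes were called higher and 470 lower, or 494 and 293 with median scaling. The call of IER2 was lost without the merbarone 2 h replicate 1 (adjusted p of 0.153) or replicate 2 (0.103), and that of IER5 without replicate 2 (0.151). With no filter on low RPKM, which raised the genes tested to 16810, no member passed: the adjusted p was 0.0691 for IER3, 0.121 for IER5, 0.132 for IER2 and 0.256 for IER5L.

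**Figure D3:**
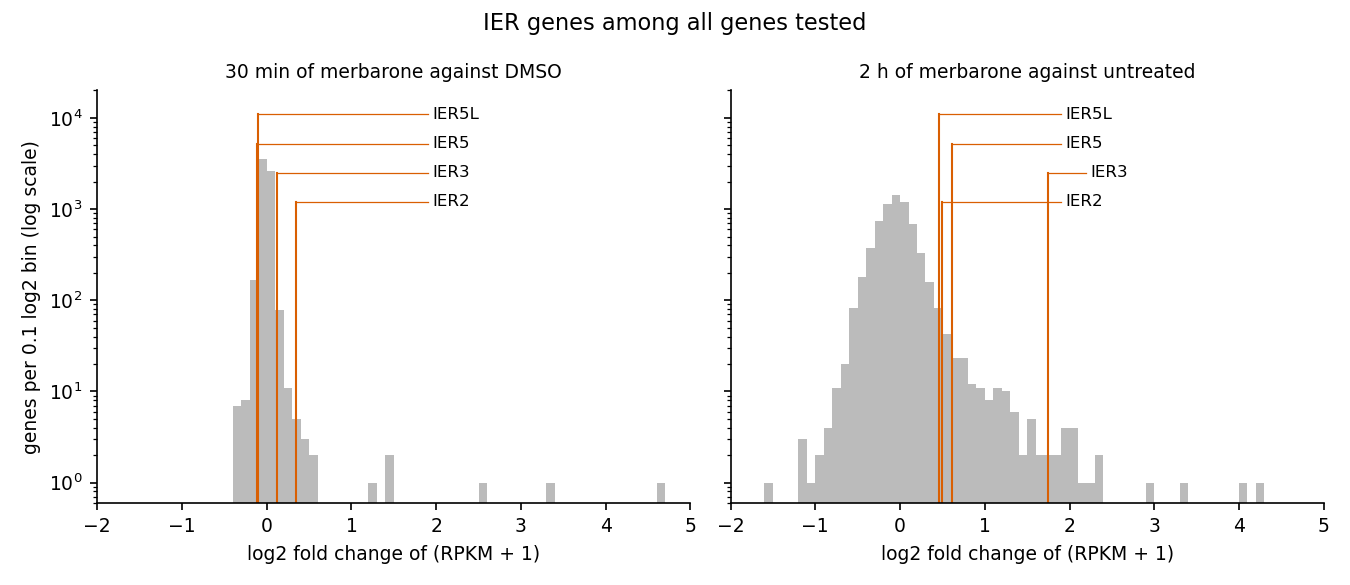
Histograms of the log2 fold change of (RPKM + 1) over all genes tested (grey bars, genes per 0.1 log2 bin on a log axis) after 30 min and after 2 h of merbarone, with vertical lines at the IER genes. At 2 h all 4 lines lie on the right shoulder of the distribution and IER3, at 1.75, in its far tail, while at 30 min IER5 and IER5L lie left of 0.

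The effect at 2 h was set against that at 30 min in 1 fit of all 10 libraries. IER3 had a higher effect at 2 h by 1.64 ± 0.24 (SE) on the log2 scale, with an adjusted p of 0.0107 in limma. IER5 was higher by 0.73 ± 0.15 (SE), with an adjusted p of 0.0499, at the edge of the threshold. These were 2 of 4 members, where 1.27% of 6558 genes were called with a higher effect at 2 h. For IER2 the difference was 0.13 ± 0.27 (SE; 95% interval -0.48 to 0.75, adjusted p of 0.864), so its 30 min and 2 h effects of 0.35 and 0.49 were not distinguished. For IER5L it was 0.55 ± 0.35 (SE; 95% interval -0.24 to 1.34, adjusted p of 0.489). The IER3 call was lost without merbarone 2 h replicate 1 (adjusted p of 0.0603) or replicate 2 (0.0708), and the IER5 call was kept in 1 of 10 fits that each left out a library. These fits took no account of pairing. With the replicate number as a block in both experiments, the adjusted p in limma was 0.00127 for IER3 and 0.00353 for IER5. At 2 h that number was not taken as a pairing. In this contrast the length of treatment, the solvent in the control and the experiment itself are confounded and cannot be told apart.

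The unequal rises changed the make-up of the family. The summed level of the 4 genes was 85.8 and 103 RPKM in the untreated libraries and 215 and 227 RPKM after 2 h of merbarone. IER3 made up 42.9% and 45.7% of that sum in untreated cells and 65.2% and 63.9% after 2 h, while IER5 went from 34.9% and 31.1% to 20.4% and 23.0%. IER2 went from 16.1% and 16.0% to 10.1% and 9.38%. These shares show unequal change, not a fall, since each gene's own level was higher. Within each library, the log2 ratio of IER3 to IER2 was 1.46 ± 0.08 untreated and 2.73 ± 0.06 after 2 h (SD, n = 2), and that of IER3 to IER5 was 0.43 ± 0.18 and 1.58 ± 0.14. These ratios did not overlap between groups, but an exact two-sided permutation test of 2 against 2 libraries cannot go below p = 0.333. In the 30 min experiment the shares of IER3 were 40.4% to 47.0% in DMSO and 41.0% to 49.2% after merbarone, and overlapped. IER2 was 14.5% to 19.1% of the sum in DMSO and 17.2% to 22.0% after merbarone, which overlapped as well.

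**Figure D4:**
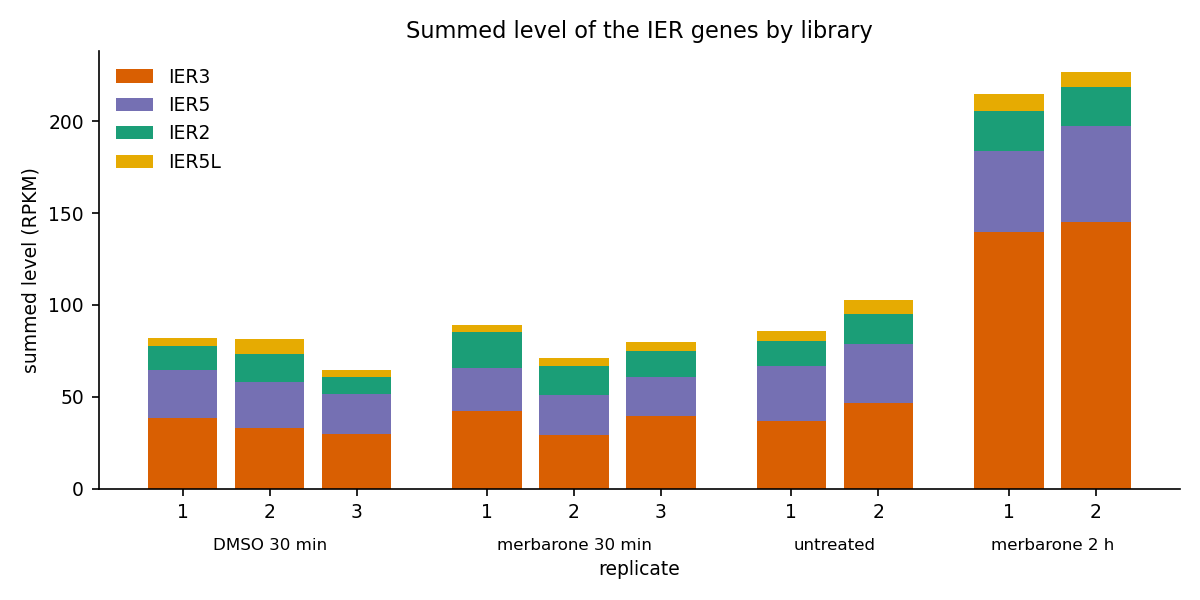
Summed level of the 4 IER genes in RPKM (vertical axis) in each library, by replicate and group, with the part of each gene stacked. The sum is 64.5 to 103 RPKM in the 8 libraries of the other 3 groups and 215 and 227 RPKM after 2 h of merbarone, where IER3 takes 65.2% and 63.9%.

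Genes with the most similar pattern were sought among 6558 genes averaging 1 RPKM or more, as the root mean square difference across the 10 libraries of log2(RPKM + 1) relative to the control mean of the same experiment. The nearest to IER3 was GADD45B, a stress sensor that binds MAP kinase kinases, at 0.18, followed by BHLHE40, a repressor linked to the circadian clock, at 0.20 and SLC3A2, the heavy chain of amino acid transporters, at 0.21. Their log2 fold changes at 2 h were 1.96, 1.93 and 1.40. The nearest to IER5 were TRIB3, a pseudokinase of the integrated stress response, at 0.08, LINC01560 at 0.09 and ARID5A, an RNA-binding protein, at 0.10. These averaged only 1.36, 1.44 and 1.07 RPKM untreated and 2.61, 2.57 and 2.54 RPKM after 2 h, against 30.9 and 48.0 RPKM for IER5. At such low levels the added 1 shrinks fold changes, so a close match on this scale need not be an equal fold change in RPKM. Nearest to IER2 were CDKN2B, a cell-cycle inhibitor, TNFSF9, a ligand of the tumour necrosis factor family, and EPHA2, a receptor tyrosine kinase, each at 0.19. For IER5L they were IFITM10 at 0.13, ABHD16B at 0.15 and ST20-AS1 at 0.15. The median over all other genes was 0.83 for IER3, 0.33 for IER5, 0.38 for IER2 and 0.35 for IER5L, so IER3's pattern stood farther from that of most genes than the others did. Among the members, IER5 and IER5L were closest to each other (0.26), and IER3 and IER5L farthest apart (0.65).

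The IER genes were placed beside 36 other immediate-early genes. At 30 min, 26 of these were tested, 1 was called higher and none lower, where 0.0154% of all genes tested were called higher. The median log2 fold change of the 26 was 0.17, against 0.01 for the IER genes and -0.01 for all genes tested. The called gene was FOS, a subunit of the AP-1 factor, at 4.69 ± 0.25 (SE). With the replicate block, 7 of the 26 were called, all higher, where 0.123% of all genes tested were called in either direction. The IER2 value of 0.35 was exceeded by 9 of the 26, and those of IER5 and IER5L were below all of them.

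At 2 h, 29 of the list were tested, 24 were called higher and 1 lower, where 5.98% and 7.10% of all genes tested were. The median of the 29 was 1.24, against 0.55 for the IER genes and -0.05 for all genes tested. The largest rises in log2(RPKM + 1) were those of EGR1, a zinc finger factor, at 4.02, and FOSB, an AP-1 subunit, at 3.33. JUNB, also an AP-1 subunit, KLF2, a Krüppel-like factor, and RHOB, a small GTPase, followed at 2.40, 2.38 and 2.10. In mean RPKM, EGR1 went from 2.71 to 59.4 and FOSB from 0.189 to 10.9. The added 1 shrinks the change of FOSB more, so the order need not hold for fold changes in RPKM. SRF, the serum response factor itself, was the gene called lower, at -0.42 with an adjusted p of 0.0266; it is named here after its value was seen. IER3 was exceeded by 11 of the 29, IER5 by 21, IER2 by 22 and IER5L by 23. IER3 thus stood near the middle of the list and the other 3 in its lower part.

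**Figure D5:**
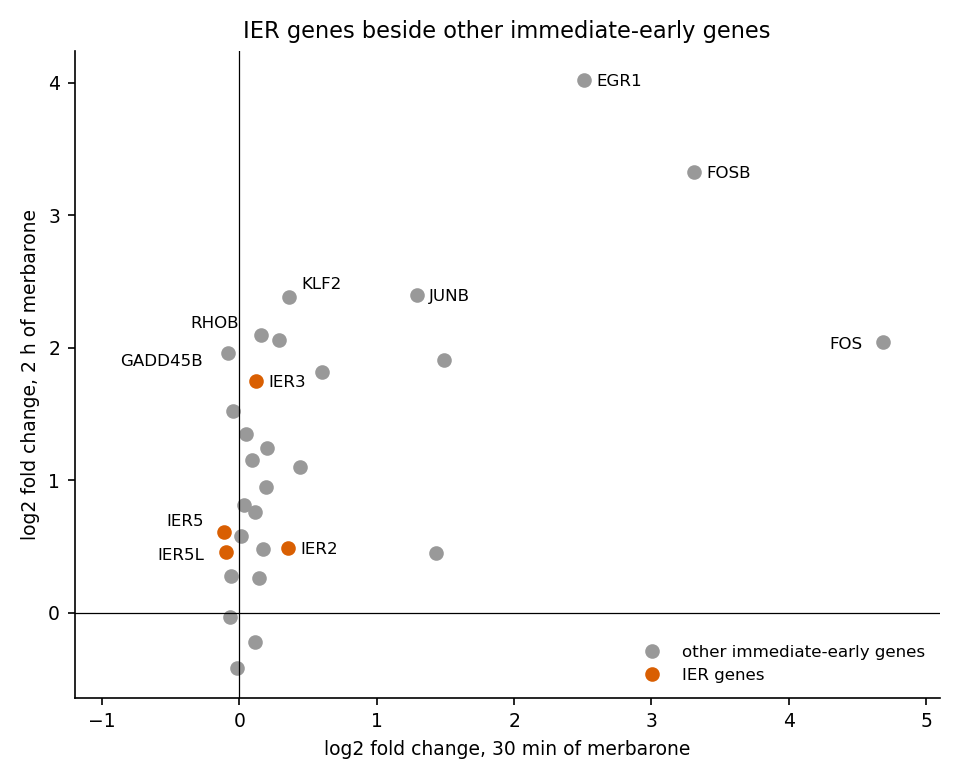
Log2 fold change of (RPKM + 1) after 30 min (horizontal axis) and after 2 h of merbarone (vertical axis) for the IER genes and the other immediate-early genes tested in both experiments. FOS lies far to the right at 4.69, while IER3 lies at 0.12 and 1.75, beside GADD45B.

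Genes linked to the IER proteins were counted as well. Of 10 genes for HSF1, the ERK kinases and subunits of PP2A, 7 were tested at 2 h and none was called by limma, with a median log2 fold change of -0.12. Of these, 2 had an unadjusted p under 0.05, a share near the 31.3% of all genes tested that did, and voom called 1, lower. HSF1 measured 2.80 ± 0.717 RPKM untreated and 2.48 ± 0.0564 RPKM after 2 h (SD, n = 2), with an adjusted p of 0.537. Of 8 heat shock genes driven by HSF1, none was called higher and 3 were called lower at 2 h by limma, and also 3 by voom, with a median of -0.25. Over all genes tested, 7.10% were called lower at 2 h and the median was -0.05. HSPA8, a constitutive HSP70 chaperone, fell by 0.57 on the log2 scale, from 225 ± 3.38 to 152 ± 1.38 RPKM (SD, n = 2; adjusted p of 0.0130). HSPA1A and HSPA1B, the inducible HSP70 genes, had log2 fold changes of -0.76 and -0.49, and as near-identical copies their reads may be split between them. At 30 min neither list had a call by limma or voom or an unadjusted p under 0.05, with medians of -0.02 and -0.01.

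The neighbours of the IER genes did not move with them past the threshold. STX10, a syntaxin whose gene starts 27 bp from IER2 on the opposite strand, had a log2 fold change of -0.27 ± 0.10 (SE) at 2 h, with an adjusted p of 0.107. FLOT1, a membrane scaffold gene 466 bp downstream of IER3 on the same strand, measured 32.0 RPKM untreated and 32.3 RPKM after merbarone (log2 fold change of 0.02, adjusted p of 0.938). DDR1, the next measured gene on the other side of IER3, lay 132 kb away and had -0.02. MR1, 26.8 kb from IER5, had 0.04. PTPA, 26.6 kb from IER5L, had -0.31 ± 0.09 (SE), with an adjusted p of 0.0636 in limma. NTMT1, 431 kb away on the other side of IER5L, had 0.10. None of these 6 neighbours was called at 2 h or at 30 min by limma. CACNA1A, 51.5 kb from IER2, and CACNA1E, 225 kb from IER5, were too low to be tested.

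Base composition was examined because short, GC-rich genes can shift between libraries. The gene spans were 62.4% G and C for IER2, 58.5% for IER3, 49.8% for IER5 and 65.0% for IER5L. Tested genes within 1 percentage point of each member had a median log2 fold change at 2 h of -0.12, -0.10, -0.05 and -0.17 in that order, and a 95th percentile of 0.39, 0.41, 0.37 and 0.24. All 4 members lay above that percentile, as their effects ran from 0.46 to 1.75. This was nearly fixed in advance, since at most 3.31% of all genes tested lay above any member at 2 h. The genes were not matched on length. At 30 min the 95th percentiles were 0.05, 0.06, 0.06 and 0.02, which IER2 and IER3 exceeded and IER5 and IER5L did not. These are descriptions over genes, which are not replicates, and whether base composition or length played a part was not tested.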

How the data were processed

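Polyadenylated RNA was measured in 10 libraries of hTERT RPE-1 cells, in 2 experiments analysed separately. What the authors deposited is RPKM for each Ensembl gene, 1 file to a library, as the headers name it; the values are on a linear scale. The submitters' processing notes name Bowtie 1.2.0, deepTools 2.4.1, DESeq2 and edgeR and the builds hg19 and GRCh37, without their roles; the annotation, the gene lengths and the strand setting are not given in the sources used here. RPKM is relative to all reads of a library. Symbols were matched on the gene ID for 19637 of 20327 genes.

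Reads were recovered as the whole numbers that the RPKM steps imply (17680 genes, 100% of those above 0, whole to within 0.001 read). Each gene's length was set as the smallest that makes its reads whole, so this wholeness is not a separate check. Where all reads of a gene share a factor with its length, the recovered reads are too low. The lengths that these steps give were within 1% of the genomic span in the GRCh37 annotation used here (GENCODE, lifted) for 75.2% of matched genes, so introns are part of the length for most genes.

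Tests ran across all genes on log2(RPKM + 1) with a trended eBayes in limma 3.58.1 under R 4.3.3, for genes averaging 1 RPKM or more, two-sided, with Benjamini-Hochberg adjustment and a threshold of 0.05. Adding 1 before the log makes fold changes of low genes too small. The pseudocount, filter, scaling, trend, replicate block and left-out libraries were varied, and voom was run on the recovered reads. The code was tested on simulated data. The replicate numbers were taken as pairing the 30 min libraries, from the correlations given with that comparison. In the 2 h experiment, with 2 pairs, the numbers were not taken as pairs. Besides the IER genes, the text names the 3 genes closest to each in pattern and, of the 3 lists (36 immediate-early genes, 10 partner genes, 8 heat shock genes), at most 5 called genes and HSF1. The members and lists were chosen with earlier results of these data known. The comparisons by base composition, exon length and neighbouring genes were added after the data were seen. Intervals from counts cover counting error only. Python 3.11.15, NumPy 2.4.6, pandas 2.3.3 and matplotlib 3.10.9 were used besides.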

Additional observations from a re-analysis of the deposited data

Results flagged for a closer look

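The effect of merbarone on IER3 differed between the experiments, by 1.64 on the log2 scale in favour of 2 h, and drew attention because this difference was itself tested in limma (adjusted p of 0.0107). Over the other 19 fits its adjusted p ran from 9.24e-06 to 0.0708. The effect on IER5 differed in the same direction by 0.73, and its adjusted p was 0.0499, or 3.17e-04 to 0.205 over the same other fits. For both genes the 2 h control had received no solvent, so length of treatment and solvent are confounded and cannot be told apart.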

How the results depend on the processing

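The direction of the 2 h effect was the same for all 4 members in every fit run. Calls for the members at 2 h were lost with no filter on low RPKM (IER3 1.75, IER5 0.61, IER2 0.49) and, for IER2, with all 10 libraries in 1 fit (0.49, adjusted p of 0.174). IER5L was gained with median scaling (0.51), quantile normalization (0.54), voom (0.53), voom with the replicate block (0.51) and the replicate block (0.46), and without untreated replicate 2 (0.67). At 2 h the block rests on a pairing correlation of 0.300 from 2 pairs, and a variance trend replaced each gene's own spread there. The number was therefore not read as a pairing. Leaving out 1 library gave 2 h effects of 0.37 to 0.60 for IER2, 1.58 to 1.92 for IER3, 0.49 to 0.74 for IER5 and 0.24 to 0.67 for IER5L; where this left 1 library in a group, that library was assumed to vary like the others. At 30 min no member was called in any fit; without 1 library IER5L ran from -0.28 to 0.19, reversing to 0.19 without DMSO replicate 2, IER2 from 0.17 to 0.50, IER3 from 0.01 to 0.27 and IER5 from -0.19 to -0.06. With a filter of 5 RPKM, IER5L was not tested at 30 min.

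For the difference between the effects, IER5 was lost with a pseudocount of 0.1 (0.74), no filter (0.73) and voom (0.74), and ran from 0.60 to 0.85 without 1 library. IER3 ran from 1.46 to 1.81. IER2 ran from -0.02 to 0.32, reversing to -0.02 without DMSO replicate 2. IER5L ran from 0.27 to 0.77. In limma on RPKM, the replicate block changed no call of a member at 30 min or in the difference. In voom, the block restored the call of IER5 in the difference (0.75, adjusted p of 3.17e-04).

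Counts over all genes moved more. At 30 min the 1 call became 0 with no filter, 2 with a filter of 5 RPKM, median scaling, quantile normalization or all 10 libraries, 8 with the replicate block, 13 with voom and the block, and 0 to 2 without 1 library. At 2 h the 866 calls became 53 with no filter, 397 with a filter of 5 RPKM, 2129 with the replicate block, 1882 with voom, 3487 with voom and the block, and 328 to 2464 without 1 library. For the difference the 107 calls became 361 with no filter, 36 with a filter of 5 RPKM, 1255 with the replicate block, 66 with voom, 2104 with voom and the block, and 38 to 86 without 1 library.

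Levels were also read per kilobase of annotated exon, an alternative chosen after seeing the data. In the order DMSO, merbarone 30 min, untreated and merbarone 2 h, IER2 then moved to 18.5, 23.8, 22.0 and 31.4. IER5 moved to 13.6, 12.5, 17.2 and 26.7. Both moved because the lengths used differ. The reads were not counted anew over the annotated exons, so the IER5 values may be too low. Quantile normalization moved merbarone 2 h levels to 21.1 RPKM for IER2 and 134 RPKM for IER3, and untreated IER5 to 27.7 RPKM, which median scaling put at 29.2 RPKM. The cause of the other changes was not tested. The 2 h libraries held fewer reads, and IER5L, at 187 to 341 reads there, carried the largest counting error (6.85% in untreated cells).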
